A study of Mus musculus with 3 samples.

Results

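The immediate early genes Fos, Fosb, Jun, Junb, Egr1, Atf3, Dusp1, Ier2 and Ier3 were followed across sections of the pregnant mouse uterus. These 9 genes were taken by symbol from the 32285 genes of the deposited count matrices, and each of the 9 had UMIs (unique molecular identifiers, which count captured RNA molecules) in every library. Frozen uterine sections from female mice, housed to 8 weeks of age, mated and dissected on pregnancy day 7.5, were placed on Visium slides, on which RNA is captured at a grid of barcoded spots, each a small area that can hold several cells. The 4 biological replicates came as 3 libraries: replicates 1 and 2 share 1 library, and replicates 3 and 4 have 1 each. The labels name no strain, genotype or agent, so the design has 1 group, and the comparison it allows is between tissue regions within the libraries. At this stage the embryo has implanted, and the uterine stroma around it has turned into decidua, enclosed by undifferentiated stroma and the muscle wall.

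Immediate early genes are transcribed within minutes of a growth factor, cytokine, calcium or stress signal from factors already present in the cell, without new protein synthesis. Many of their transcripts are short-lived, because their 3′ ends carry elements that speed RNA decay. Fos, Fosb, Jun and Junb encode subunits of the AP-1 transcription factor, Atf3 a related stress-induced leucine zipper factor, and Egr1 a zinc finger factor. Dusp1 encodes a phosphatase that switches off MAP kinases, and Ier2 and Ier3 encode early response proteins with no known enzyme activity. They are also known to rise when tissue is cut, warmed or handled.

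Of 3978 deposited spots, 3939 with at least 1000 UMIs were used. The library of replicates 1 and 2 was shallower, with a median of 8038 UMIs per spot against 26543 in replicate 3 and 28286 in replicate 4, and it held 38 of the 39 spots that fell under the minimum. Between 676 and 825 spot barcodes were shared by each pair of libraries, since Visium arrays carry the same set of barcodes. Nothing in the matrices separates replicate 1 from replicate 2, so the 2 animals count as 1 sample here. P-values therefore rest on 3 libraries. Overall differences between libraries are allowed for, so p-values measure how far region differences vary from library to library, pooled over all regions. Regions of 1 library share its tissue and are not independent samples.

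Over all spots of a library, Fos had 44.5 UMIs per 1000000 (CPM) in the library of replicates 1 and 2, 38.7 in replicate 3 and 43.4 in replicate 4. Jun stood at 66.6, 63.9 and 73.8 CPM in the same order, and Ier2 at 68.5, 81.7 and 72.3 CPM. For these 3 genes the highest library was within 1.19 times the lowest. Dusp1 averaged 31.3 ± 3.73 CPM, Atf3 7.39 ± 0.914 CPM and Egr1 5.63 ± 0.575 CPM (SD, n = 3 libraries). Fosb was near the limit of detection, with 11, 22 and 41 UMIs in the 3 libraries, a mean of 0.942 ± 0.378 CPM (SD, n = 3). These values count transcript ends and were not corrected for how well each gene's end was captured, so they were not used to rank 1 gene against another.

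Junb and Ier3 varied more between libraries. Junb had 36.5 CPM in replicate 3 and 36.6 in replicate 4 but 19.4 CPM in the shallow library. Ier3 had 50.3, 69.3 and 92.4 CPM. Both were lowest in the shallow library, and the other 2 libraries lay close together for Junb but apart for Ier3. With every spot thinned to 3000 UMIs, which left out 168, 2 and 3 shallower spots, the shallow library showed a Junb UMI in 5.23% of its spots, with an exact 95% binomial range of 4.20% to 6.44%. Replicate 3 reached 10.6%, with a range of 8.80% to 12.6%, and replicate 4 reached 11.7%, with a range of 9.87% to 13.8%. Without thinning these shares were 15.5%, 53.3% and 55.7%. The intervals cover counting error only. Junb was lowest in the library of replicates 1 and 2 in 11 of 12 tissue regions, and Ier3 in 9 of 12. The libraries differ in animal, capture area and depth together, and the part of each in these gaps was not tested.

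The tissue regions were found by clustering the spots on a random set of 16142 genes from which the 9 members and every gene of the pathway and marker lists had been removed. They are called by number and leading genes. Region 10 (leading genes Tnnc1, Klk7, Crct1) and region 7 (Sprr2h, Psca, Fabp4) carried the most decidual RNA: the 12 decidua marker genes together made up 134366 ± 59864 CPM of the former and 67443 ± 23598 CPM of the latter (SD, n = 3). Region 5 (Bco1, Mrgprg, Hsd3b6) had 30697 ± 14856 CPM of the same list, and the 11 genes of the endothelium list were all called higher there than in the other regions. Region 11 (Prl7a1, Plet1, Pfpl) held the conceptus markers, with a trophoblast list sum of 2808 ± 628 CPM. Region 12 (Fbxl22, Asb2, Pgm5) was smooth muscle, whose list summed to 37383 ± 6341 CPM, and region 9 (Spink1, Tmem213, Itga8) joined stroma with gland markers. In region 2 (Gzmd, Gzme, Gzmf) the natural killer cell list summed to 5515 ± 1790 CPM. The remaining regions were 1 (Mt4, Stra6, Sfrp5), 3 (Pappa2, Pgm5, Retnla), 4 (Nppa, Wfikkn2, Tnni2), 6 (Qrfpr, Scn3b, Gzmd) and 8 (Stmn2, Syt13, Susd2).

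**Figure D1:**
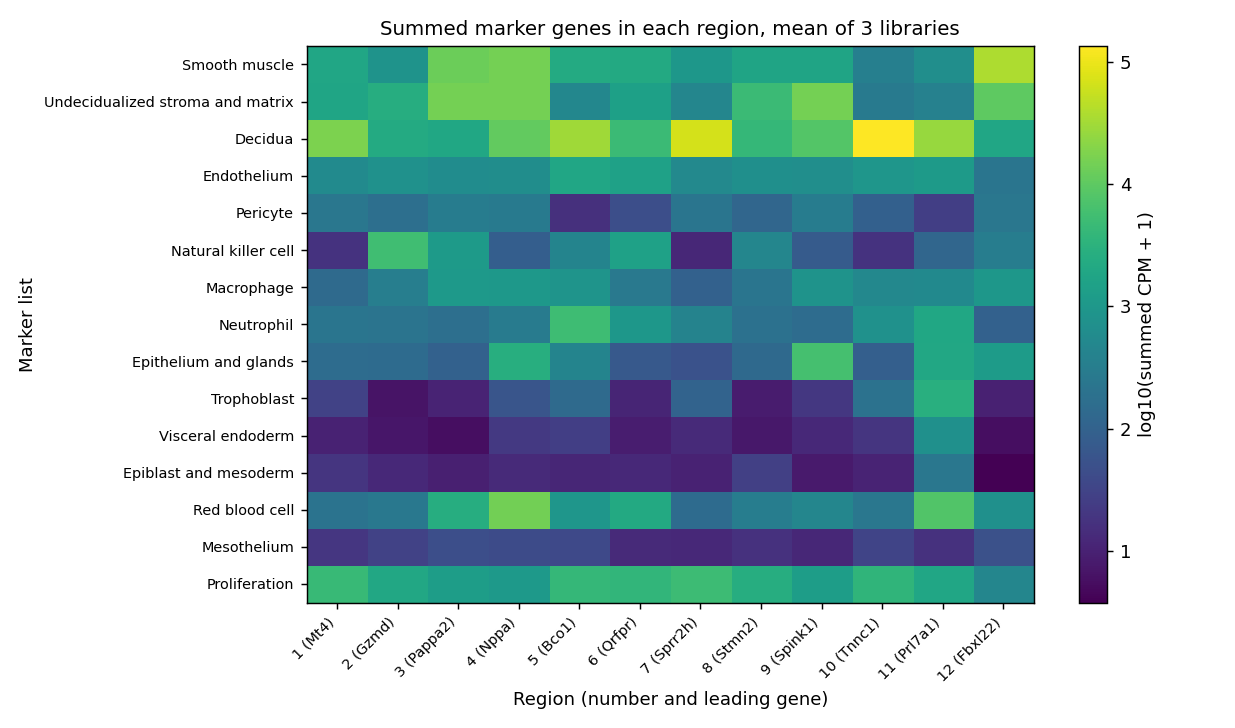
Summed CPM of each marker list (rows) in each region (columns), as log10 of the mean of 3 libraries plus 1; brighter cells are higher. The decidua list is brightest in region 10, smooth muscle in region 12, and the trophoblast, visceral endoderm and epiblast lists in region 11.

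UMIs were summed per library and region, which gave 36 sums, and each region was compared with the mean of the other regions by edgeR's quasi-likelihood test with the library as a block. A call needed an adjusted p (Benjamini-Hochberg) below 0.05 together with a change of 1 or more on the log2 scale, up or down. Of the 9 members, 8 had enough counts to be among the 6236 genes tested, and Fosb did not. In sections, fewer cells of a type and less RNA per cell cannot be told apart.

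The 8 tested members differed among the regions, as did 91.6% of all genes tested, so that count says little about them. Of the 96 pairs of a member and a region, 12 were called higher and 12 lower, where the background over all genes was 10.9% higher and 8.55% lower. Fos was called higher in regions 5, 7 and 10, Egr1 in 5, 9 and 11, Atf3 in 4, 5 and 12, Dusp1 in 5 and 10, and Ier3 in 5. The share of all genes called higher was 13.4% in region 4, 8.68% in region 7, 11.1% in region 9 and 14.4% in region 10. Fos was called lower in regions 3 and 12, Egr1 in 1 and 8, Atf3 in 1 and 7, Dusp1 in 2 and 8, Ier3 in 2, 3 and 12, and Junb in 12. The share of all genes called lower was 6.96% in region 1, 7.1% in region 2, 5.89% in region 3 and 13.5% in region 7. Jun and Ier2 had no call in any region.

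**Figure D2:**
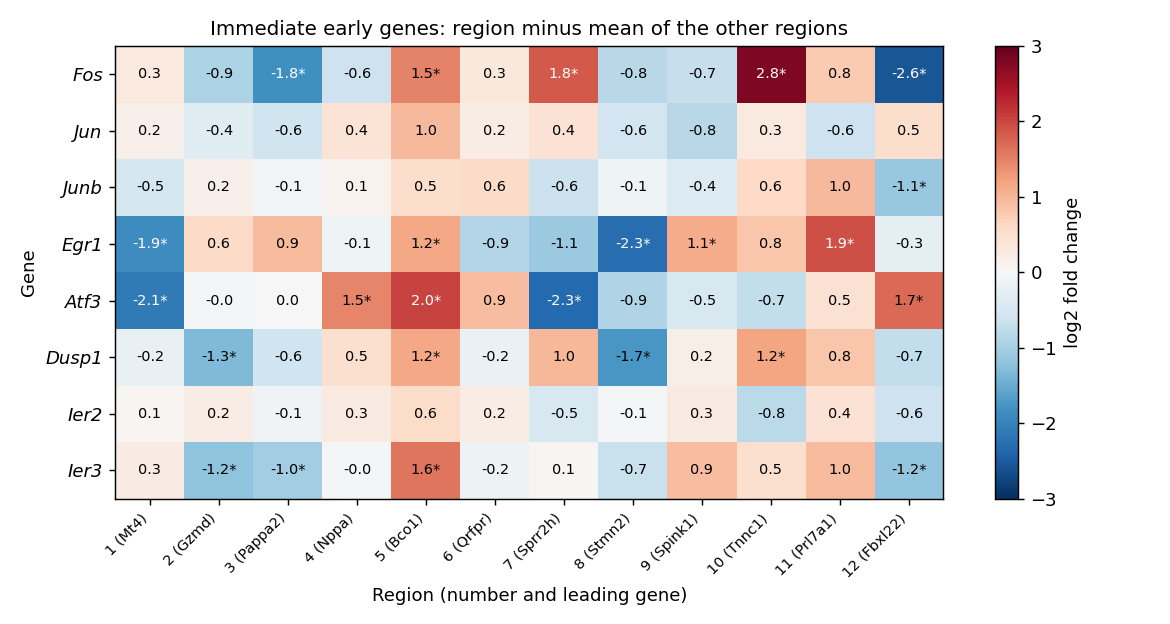
Log2 fold change of each tested member (rows) in each region (columns, number and first leading gene) against the mean of the other regions; red is higher, blue is lower and a star marks a call. In region 5 every member is above 0, whereas in region 12 Fos is lowest while Atf3 is called higher.

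Region 5 held the largest set of calls. In it 5 of 8 members were called higher, where 13.3% of all genes tested were, and none was called lower (background 8.47%). The median log2 fold change of the 8 members there was 1.16, beside −0.05 for all genes. The members called were Fos at 1.48 ± 0.12 (SE), Atf3 at 2.04 ± 0.20, Ier3 at 1.60 ± 0.13, Dusp1 at 1.17 ± 0.13 and Egr1 at 1.15 ± 0.27 on the log2 scale. The call for Egr1 was lost without replicate 4, with a log2 fold change of 0.95 and an edgeR adjusted p of 0.0642. Jun, at 0.98, lay just under the minimum fold, and Junb and Ier2 stood at 0.53 and 0.56. Markers of several cell types moved in region 5. Among them were the endothelium list, 11 of 11 genes higher and 1663 to 2100 CPM over the 3 libraries, and the decidua list, 6 of 12 higher, 2 being lower, and 19474 to 47545 CPM. Of the neutrophil list the 3 genes tested were higher there, and their sum was almost wholly S100a8 at 5019 ± 468 CPM (SD, n = 3), while the neutrophil marker Ly6g was at 0 and Retnlg and Cxcr2 had 10 and 7 UMIs. Also higher were 5 of 5 trophoblast genes tested, at a list sum of 123 to 159 CPM with Prl2c2 and Gcm1 at 0, 6 of 9 epithelium and gland genes, 2 being lower, at 256 to 600 CPM with Foxa2 at 0, 4 of 6 visceral endoderm genes, at 15.9 to 31.4 CPM, and 4 of 9 natural killer cell genes, at 16.3 to 961 CPM. Lower were 6 of 6 pericyte genes, 7 of 10 smooth muscle genes, 1 being higher, and 7 of 10 stroma genes. Of 8 macrophage genes 4 were lower and 2 higher, at 687 to 1040 CPM. The part of these cells in the members' levels was not tested.

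Region 12, the smooth muscle, had the most members called lower: Fos, Junb and Ier3, 3 of 8, where 12% of all genes were. In the same region Atf3 was called higher, as were 14.7% of all genes. In the conceptus region 11, 7 of 8 members were above 0 with a median of 0.81, but Egr1 was the 1 member called (background 13.7% higher). In region 8 no member was above 0, the median was −0.75, and Egr1 and Dusp1 were called lower (background 5.58%).

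**Figure D3:**
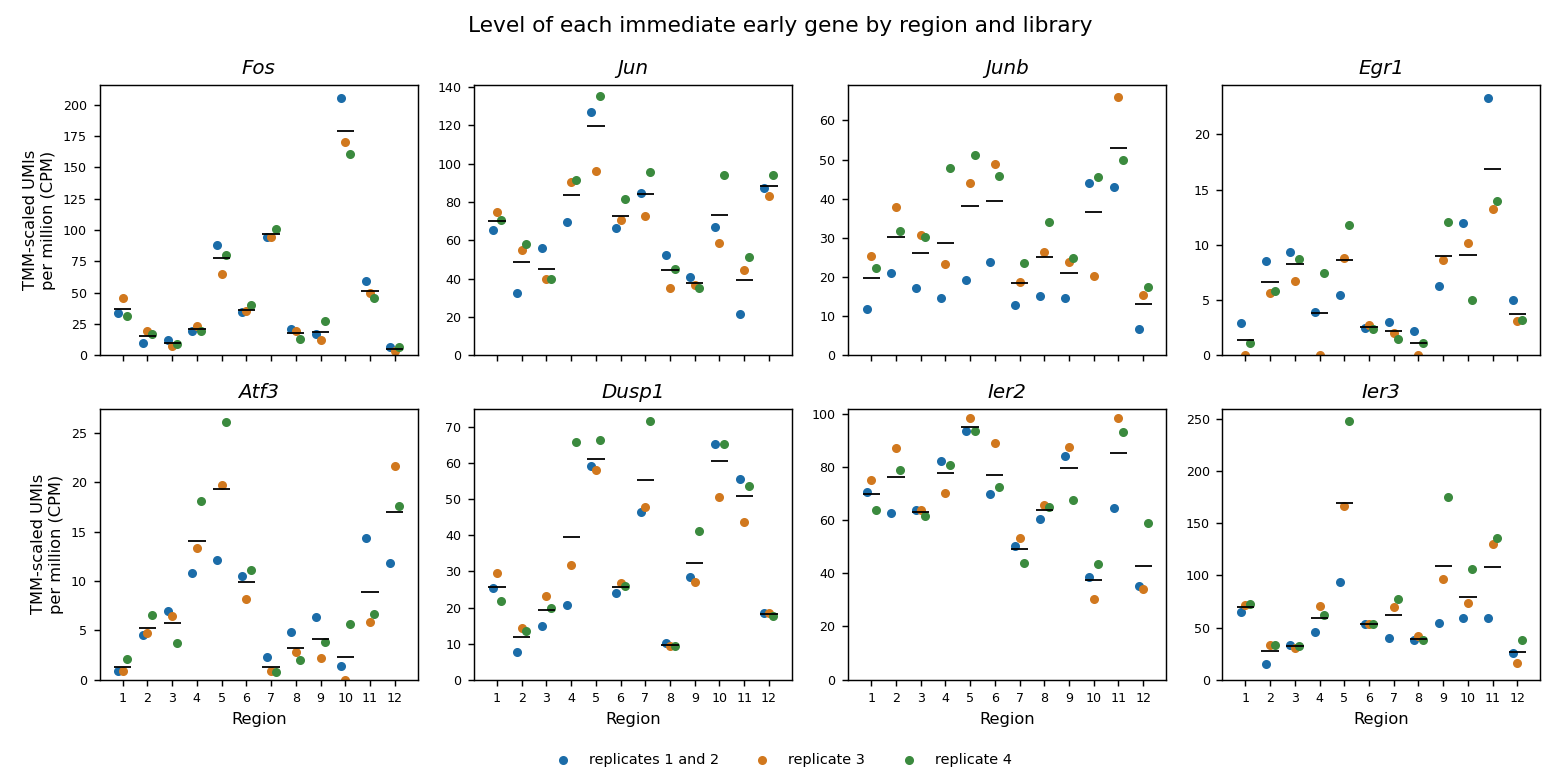
Level of each tested member in each region, 1 point per library (colour) and a bar for the mean, in CPM after scaling by the trimmed mean of M-values (TMM). Fos in region 10 lies between 161 and 205 CPM, above every other region, while Ier2 stays between 30.5 and 98.4 CPM throughout.

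Fos (ENSMUSG00000021250, GRCm38 chr12:85473890-85477273, plus strand) encodes the AP-1 subunit that must pair with a Jun protein to bind DNA. It was highest in region 10, at 205 CPM in the library of replicates 1 and 2, 170 in replicate 3 and 161 in replicate 4, after TMM scaling. In region 7 it had 94.4, 94.3 and 101 CPM, and in region 5 it had 88.2, 65.2 and 80.4 CPM. In the muscle region 12 it had 6.73, 3.09 and 6.39 CPM, from 9 UMIs in all. In replicate 3, region 10 had 20 spots and region 12 had 23, the fewest of the 3 libraries in each. On the TMM scale the levels of these 4 regions did not overlap, and the order from region 10 to 7 to 5 to 12 was the same in each library. Levels of members in regions are given on this scale below unless stated, and sums of lists are not.

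Next after region 5 came region 11 at 51.4 ± 6.97 CPM, and below it regions 1 and 6 at 36.8 ± 7.63 and 36.5 ± 3.11 CPM (SD, n = 3), which overlapped. Regions 4, 9, 8, 2 and 3 lay between 20.7 and 9.82 CPM, and each overlapped its neighbour in that order. Region 10 was 33.1 times region 12 by their means. A highest region clear of the second was found for 23% of all genes, and a lowest region clear of the next for 11.6%; Fos had both. Its log2 range over the regions was wider than that of 84.3% of the genes tested.

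The log2 fold change of Fos was 2.79 ± 0.13 (SE) in region 10 (edgeR adjusted p = 3.4e-20), 1.83 ± 0.13 in region 7 (6.8e-15), −1.84 ± 0.20 in region 3 (1.0e-09) and −2.57 ± 0.39 in region 12 (8.3e-07). The summed decidua list was high in region 10 and low in region 12, as Fos was. Its sum ran from 81545 to 199391 CPM in region 10, where 6 of 12 genes were called higher and 1 lower. In region 12 it ran from 1166 to 2551 CPM, and 10 of 12 were called lower. None of its 12 genes was at 0 in region 10. The calls of single decidua genes did not follow Fos in every region. In region 7, with less Fos than region 10, 10 of 12 were higher. In region 1, where Fos was at 0.30 and not called, 8 were higher and 0 lower. In region 11, where Fos was at 0.79 and not called, 4 were higher and 7 lower. The mitochondrial share of UMIs ran the other way from Fos at both ends of its range. In each library region 10 had the lowest share of the 12 regions (0.480%, 0.446% and 0.393%) and region 12 the highest (2.61%, 2.07% and 1.35%). Between them the share did not follow Fos steadily. Region 9 had less Fos than region 1 and also lower shares (0.969%, 0.756% and 0.776% against 1.32%, 1.04% and 1.12%). The part of decidual cells or of RNA quality in the Fos level was not tested. Because decidual hormone transcripts take up so much of region 10, its TMM factor matters: before that scaling Fos had 125, 135 and 105 CPM there, still above the 78.4, 76.4 and 84.3 CPM of region 7. On that unscaled measure regions 7 and 5 overlapped, since region 5 had 79.1 CPM in the library of replicates 1 and 2. The means of regions 10 and 12 were then 122 and 5.67 CPM, a narrower span than after scaling.

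Fosb, whose protein can replace Fos in AP-1 (ENSMUSG00000003545, chr7:19302696-19310051, minus strand), had 74 UMIs in all. In region 5 it had 1, 5 and 11 UMIs in the 3 libraries, and in region 11 it had 1, 2 and 7. Fitted with no filter on low counts, Fosb had its lowest adjusted p, 0.0765, in region 5 at a log2 fold change of 1.21 ± 0.55 (SE), and it was called in none of the 12 regions. A difference between regions was not detectable for Fosb at this depth.

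Jun (ENSMUSG00000052684, chr4:95049034-95052222, minus strand), the partner subunit of Fos, was highest in region 5, with 127, 96.2 and 135 CPM. Its lowest mean was in region 9, with 41.0, 36.7 and 35.3 CPM. Region 5 lay above every other region in its range over libraries, and the regions below it overlapped from 12 down to 1. The span from highest to lowest was 3.17 times, against 33.1 times for Fos, and the log2 range of Jun was wider than that of 37.7% of genes. In region 10, where Fos peaked, Jun stood at 0.28 ± 0.16 on the log2 scale (edgeR adjusted p = 0.125). In the muscle region 12, where Fos was lowest, Jun was at 0.52 ± 0.17 (adjusted p = 0.0145), under the minimum fold. Junos, an antisense gene, overlaps Jun, and whether the counting used strand was not given in the sources used here.

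Junb (ENSMUSG00000052837, chr8:84974484-84978718, minus strand), a Jun family member that can oppose Jun at some promoters, was highest in the conceptus region 11, with 43.0, 66.1 and 49.97 CPM. It was lowest in region 12, with 6.73, 15.4 and 17.6 CPM. Region 11 overlapped the regions next to it, and so did region 12. The log2 fold change was 0.96 ± 0.16 (SE) in region 11, under the minimum fold, and −1.14 ± 0.32 in region 12 (edgeR adjusted p = 0.0040). The peroxidase gene Prdx2 overlaps Junb on the other strand.

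Atf3 (ENSMUSG00000026628, chr1:191170296-191218039, minus strand), which is induced by many stresses, had a different set of regions. It had 12.1, 19.7 and 26.1 CPM in region 5, 11.8, 21.6 and 17.6 CPM in the muscle region 12, and 10.8, 13.4 and 18.1 CPM in region 4. In the decidual region 7 it had 2.25, 0.820 and 0.719 CPM, from 6 UMIs, and in region 1 it had 0.848, 0.859 and 2.05 CPM, from 13 UMIs. The 3 high regions overlapped each other, and each lay clear of both low regions in every library.

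Its log2 fold changes were 2.04 ± 0.20 (SE) in region 5, 1.69 ± 0.40 in region 12 (edgeR adjusted p = 5.8e-04), 1.47 ± 0.33 in region 4, −2.11 ± 0.39 in region 1 and −2.34 ± 0.50 in region 7 (1.8e-04). Fos went the other way from Atf3 in regions 7 and 12. Being called higher in 1 region and lower in another, as Fos, Egr1, Atf3, Dusp1 and Ier3 each were, also held for 39.7% of all genes. The smooth muscle list was higher in 10 of 10 genes in regions 12 and 4, at 33091 to 44666 and 13698 to 16123 CPM. It was at 8885 to 17463 CPM in region 3 too, where Atf3 had 5.70 ± 1.75 CPM, and 7 of its 10 genes were lower in region 5. The part of muscle cells in the Atf3 level was not tested. Regions 4 and 12 also had lower depth, with medians of 3396 to 14211 and 5395 to 13624 UMIs per spot.

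Egr1 (ENSMUSG00000038418, chr18:34859823-34864984, plus strand), a factor that growth factors and mechanical stretch induce, was highest in the conceptus region 11. It had 23.3, 13.2 and 14.0 CPM there, above every value in the 11 other regions. In region 8 it had 2.16, 0 and 1.16 CPM, from 7 UMIs, and in region 1 it had 2.97, 0 and 1.14 CPM, from 12 UMIs. A library with 0 UMIs in each of these regions shows how few molecules the low values rest on.

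The log2 fold change of Egr1 was 1.94 ± 0.30 (SE) in region 11 (edgeR adjusted p = 1.3e-06), −1.90 ± 0.44 in region 1 and −2.28 ± 0.51 in region 8. In region 9 it was 1.12 ± 0.38, a call that was lost without replicate 3 (0.98, adjusted p = 0.0769) and without replicate 4 (0.82, adjusted p = 0.343). In region 11 the trophoblast list was higher in 5 of 5 genes tested, at 2265 to 3496 CPM, the visceral endoderm list in 6 of 6, at 282 to 1069 CPM, and the epiblast list in 4 of 4, at 84.2 to 314 CPM. Region 11 also held red blood cell genes, 5 of 5 higher at 7443 to 7811 CPM, and epithelium and gland genes, 7 of 9 higher and 2 lower. Its decidua list, 4 of 12 higher and 7 lower, summed to 11596 to 52645 CPM, above the trophoblast list in each library. The part of any of these cells in the Egr1 level was not tested.

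Dusp1 (ENSMUSG00000024190, chr17:26505590-26562128, minus strand) encodes the phosphatase that removes the activating phosphates from p38, JNK and ERK. It had 59.2, 58.1 and 66.5 CPM in region 5, 65.4, 50.8 and 65.4 CPM in region 10, and 10.3, 9.44 and 9.27 CPM in region 8. Both high regions lay far above region 8 and overlapped each other on the TMM scale, and the 3 libraries agreed closely in region 8. Before that scaling Dusp1 had 39.9, 40.2 and 42.6 CPM in region 10, below the 53.1, 56.2 and 59.6 CPM of region 5. The unscaled mean of region 10, 40.9 CPM, also lay under those of region 11 (54.0 CPM) and region 7 (45.9 CPM). The log2 fold change was 1.17 ± 0.13 (SE) in region 5, 1.18 ± 0.17 in region 10 (edgeR adjusted p = 4.3e-07), −1.31 ± 0.16 in region 2 and −1.75 ± 0.20 in region 8 (9.0e-09). Region 7, at 0.99 ± 0.15, lay just under the minimum fold. In region 4 the libraries ran from 20.6 to 66.0 CPM. The protein-coding gene Ergic1, on the other strand, is among 4 genes that overlap the annotated Dusp1 locus.

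Ier2 (ENSMUSG00000053560, chr8:84661331-84662852, minus strand), a nuclear early response protein, was the most even of the tested members. It had 93.6, 98.4 and 93.7 CPM in region 5 and 38.7, 30.5 and 43.6 CPM in region 10. The span between those regions was 2.53 times, and 22.4% of genes had a narrower log2 range. Its log2 fold change was 0.56 ± 0.09 (SE) in region 5 and −0.80 ± 0.14 in region 10 (edgeR adjusted p = 1.3e-05), the region where Fos was highest.

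Ier3 (ENSMUSG00000003541, chr17:35821684-35822923, plus strand), a protein linked to cell survival and NF-κB signalling, had 93.6 CPM in region 5 in the library of replicates 1 and 2, 167 in replicate 3 and 248 in replicate 4. In region 9 it had 54.6, 96.2 and 175 CPM, and in region 11 it had 59.1, 131 and 136 CPM. In the muscle region 12 it had 25.2, 15.4 and 38.3 CPM. Region 5 was the highest region in each library, and its 3 libraries were further apart than those of most regions.

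The log2 fold change of Ier3 was 1.60 ± 0.13 (SE) in region 5 (edgeR adjusted p = 6.2e-13), −1.201 ± 0.18 in region 2, −1.05 ± 0.19 in region 3 and −1.18 ± 0.30 in region 12. Region 3 came to −0.87 without replicate 4 and region 12 to −0.95 without replicate 3, both under the minimum fold. Ier3 was concentrated in a few spots: 19 of 3939 spots had 20 or more Ier3 UMIs and held 11.9% of its 5507 UMIs. Of these 19 spots, 14 were in region 5, 4 in region 9 and 1 in region 11, and they came from replicate 3 (7 spots) and replicate 4 (12 spots). In the shallower library of replicates 1 and 2 no spot had more than 9. The spot with most had 75 Ier3 UMIs among 21283, with no Fos UMI and 1 Dusp1 UMI.

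In region 9 of replicate 4, 4 such spots of 64 held 60.1% of the region's Ier3 UMIs, and the epithelium and gland list had a median of 105222 CPM in them against 198 CPM over all spots of that region. The 14 spots of region 5 had a median of 2040 CPM of the same list, against 166 CPM over its 373 spots. Such list levels also occurred where few or no spots were rich in Ier3. The median was 1832 CPM over the 186 spots of region 11, which had 1 such spot. In region 12 of replicate 4 it was 2038 CPM over 48 spots, and no spot had more than 3 Ier3 UMIs. Over all 166 spots of region 12 it was 145 CPM. The part of epithelial cells in the Ier3 level was not tested. Thinned to equal depth, the variance of Ier3 over spots was 2.81 times its mean in replicate 4, 1.34 times in replicate 3 and 1.03 times in the library of replicates 1 and 2. For the other 8 members this ratio lay between 0.941 and 1.19 in every library. Without the 10 spots with the most Ier3 UMIs, which held 7.86% of them, the log2 fold change in region 5 was 1.42 ± 0.12 (edgeR adjusted p = 6.7e-13).

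The members did not share 1 pattern over the regions. Across the 36 sums, centred within each library, Pearson's r was 0.75 for Fos and Dusp1, 0.74 for Dusp1 and Ier3, and 0.68 for Fos and Ier3. It was −0.34 for Fos and Atf3 and −0.05 for Fos and Ier2. The sums share libraries, depth and region makeup, and these values are a description. From spot to spot, in spots thinned to 3000 UMIs, Spearman's rho averaged over the libraries ran from −0.02 for Fos and Junb to 0.07 for Egr1 and Atf3 over the 36 pairs. Thinning leaves most spots with no UMI of a member. Without it the same mean ran from 0.03 for Fos and Egr1 to 0.28 for Jun and Ier3 and for Fos and Dusp1, and Fos and Ier3 reached 0.40 in replicate 4. Unthinned spots also share their depth, so both sets of values are descriptions.

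**Figure D4:**
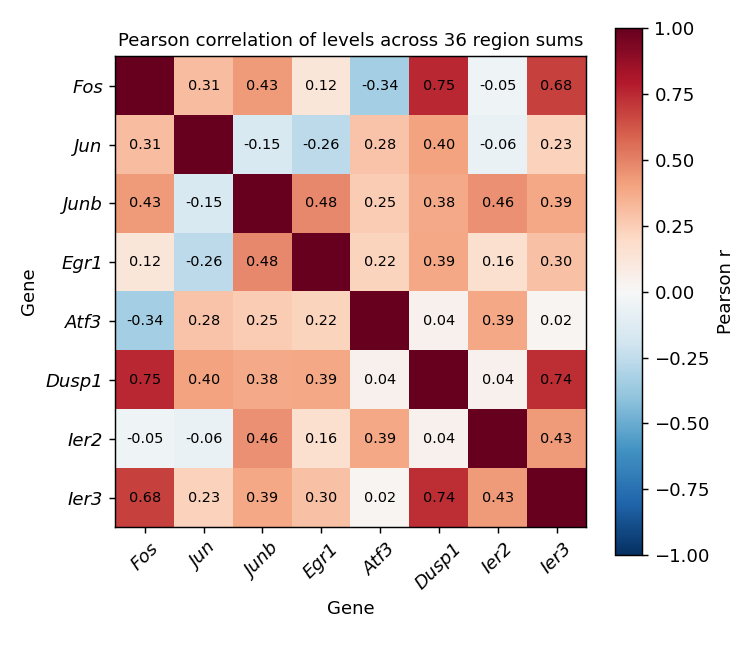
Pearson's r between each pair of tested members across 36 region sums (log2 CPM centred within each library); red is positive and blue negative. Fos, Dusp1 and Ier3 form the pairs with the highest values (0.68 to 0.75), and Fos with Atf3 has the lowest (−0.34).

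The DNA just upstream of the transcript starts was read from RefSeq's table (GRCm38.p6), which matched 7 of the 9 members; Egr1 and Ier2 had no entry used here. Fos and Dusp1 are shown because they had the highest correlation of any member pair, and Jun because its r with Fos was 0.31. Each runs 5′ to 3′ on the gene's own strand and ends before the annotated exon at the start used. The Dusp1 window lies inside the annotated Dusp1 locus given above, so the start used is not the outer 5′ end of that locus. The same holds for the Atf3 window, which is searched below but not shown. Capitals mark TGACG, the core of the cAMP response element (full form TGACGTCA), and TATAAA.
Fos, chr12:85473640-85473889, plus strand: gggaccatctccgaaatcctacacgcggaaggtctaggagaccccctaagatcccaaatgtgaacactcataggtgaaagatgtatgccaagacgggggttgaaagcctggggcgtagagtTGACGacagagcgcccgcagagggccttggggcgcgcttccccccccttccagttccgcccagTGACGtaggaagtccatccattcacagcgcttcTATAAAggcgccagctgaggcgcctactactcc
Dusp1, chr17:26508520-26508722, minus strand: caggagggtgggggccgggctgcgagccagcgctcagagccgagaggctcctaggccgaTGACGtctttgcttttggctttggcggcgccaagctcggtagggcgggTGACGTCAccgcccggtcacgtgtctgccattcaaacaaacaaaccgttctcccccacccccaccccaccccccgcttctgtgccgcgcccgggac
Jun, chr4:95052223-95052472, minus strand: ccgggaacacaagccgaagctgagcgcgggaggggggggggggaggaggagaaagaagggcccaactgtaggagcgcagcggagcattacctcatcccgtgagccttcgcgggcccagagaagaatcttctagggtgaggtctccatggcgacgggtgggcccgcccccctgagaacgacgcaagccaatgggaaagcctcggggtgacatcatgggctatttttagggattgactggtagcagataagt
Over the 250 bases before the start, on either strand, TGACG was found in 5 of the 7 members (Fos, Fosb, Junb, Atf3 and Dusp1) and in 17.8% of 32851 promoters of that length. The searched 250 bases can include annotated exon bases, which the sequences shown leave out. The only Atf3 match, 7 to 3 bases before the start, lies in 7 such bases. The full TGACGTCA was in Dusp1 among the members and in 1.55% of promoters, and it overlaps 2 of the 3 TGACG matches counted there. TATAAA was in Fos among the members and in 12.4% of promoters. TGANTCA, the AP-1 site, and the CArG box, the site of serum response factor, had no match in the 7 windows and were in 6.75% and 1.47% of promoters. GCGGGGGCG, an EGR site, was in Fosb among the members and in 2.57% of promoters. A match is a match of letters and not a measured binding site, and no match says only that these letters are not in the window.

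Other early response genes were taken from 6 lists: other AP-1 factors, Egr and Nr4a factors, other early transcription factors, feedback inhibitors, secreted and cytoplasmic products, and heat shock genes. Of their 72 genes tested, 27 were called higher and 2 lower in region 5, beside 13.3% and 8.47% of all genes. Of the 22 feedback inhibitors, 11 were higher there and 1 lower, with a median log2 fold change of 1.02 beside −0.05 for all genes. Among them Dusp2, a phosphatase of nuclear MAP kinases, was at 2.73 ± 0.11 (SE), Gadd45b, a stress sensor, at 2.29 ± 0.16, and Ppp1r15a, which restores translation after stress, at 1.61 ± 0.12.

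Of the 9 other AP-1 factors tested, 4 were higher in region 5, among them Fosl1, a Fos family member, at 3.30 ± 0.23 (SE), Maff, a small Maf protein, at 3.22 ± 0.15, and Atf4, the factor of the amino acid stress response, at 1.03 ± 0.08. Of 14 other early transcription factors, 5 were higher, including Ier5 at 1.41 ± 0.08 and Klf10 at 1.09 ± 0.10. Of 12 secreted and cytoplasmic products, 6 were higher and 1 lower. Ptgs2, the inducible cyclooxygenase of prostaglandin synthesis, was at 3.62 ± 0.25 in region 5, and Hbegf, a ligand of the epidermal growth factor receptor, at 1.76 ± 0.19. The libraries were far apart in region 5 for Ptgs2, at 43.6 ± 30.4 CPM, and for Fosl1, at 79.9 ± 46.7 CPM (SD, n = 3). The 5 Egr and Nr4a factors tested had no call there, and 1 of 10 heat shock genes was called, Bag3 at 1.14 ± 0.08.

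In the muscle region 12, 13 of the 72 were higher and 21 lower, beside 14.7% and 12% of all genes. Lower were Fosl2, a Fos family member, at −1.37 ± 0.15 (SE), Cebpb at −1.42 ± 0.17, Klf4 at −2.26 ± 0.29, Sgk1, a kinase induced by steroid hormones, at −2.09 ± 0.14, and Rhob, a small GTPase, at −2.02 ± 0.17. Higher were Jund at 1.10 ± 0.13, Batf3 at 3.73 ± 0.35 from 28 UMIs, Zfp36l1, which speeds decay of unstable transcripts, at 1.47 ± 0.15, and F3, the tissue factor of blood clotting, at 2.10 ± 0.47. Hspa1b, an inducible Hsp70 gene, was at 3.94 ± 0.22, with the reservation that its near-identical copy Hspa1a could share reads with it. Of the 72, region 10 had 22 higher and 14 lower, beside 14.4% and 15.7% of all genes. Region 11 had 23 higher and 8 lower, beside 13.7% and 14.8%, and region 8 had 1 and 12, beside 6.53% and 5.58%.

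The genes whose region pattern was most like that of each member were sought among 8587 genes over the 36 sums. For Fos they were Slc31a1, a copper transporter, with r of 0.97, and Rell1 and Sptlc2, each with r of 0.96. For Dusp1 they were Iffo2 at 0.91, Slco2a1, a prostaglandin transporter, at 0.91, and Ccdc155 at 0.90. For Ier3 they included Abca1, a cholesterol exporter, at 0.83, and Tmbim1 at 0.82. Atf3 was most like Stk40 at 0.83, Rarres2 at 0.82 and Lhfp at 0.80, and Egr1 most like Itgb3, Wipf1 and Tulp4 at 0.74 to 0.72. The nearest genes were Fgfr2 at 0.81 for Jun, Ptpn12 at 0.81 for Junb and Cdc42se1 at 0.78 for Ier2. High values are common for broad patterns: 26.1% of the genes compared had r over 0.5 with Fos and 2.66% with Egr1.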

How the data were processed

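RNA was captured from frozen mouse uterine sections on Visium slides, per the labels' protocols. The deposited matrices hold raw UMI counts per gene and spot, written by spaceranger 1.2.2, per the file headers. Cell Ranger and mm10 are named per the submitters' processing notes. The members and gene lists were chosen with earlier results of these data known. Named genes were the 9 members, up to 3 called genes of each pathway list with the smallest p in the regions with most members called higher and lower, and the 3 genes most correlated with each member. A few genes that this rule names are not reported here.

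Spots with at least 1000 UMIs were scaled to 10000 UMIs, log-transformed and reduced to 20 principal components of 1500 variable genes from a random set of 16142 genes after members and list genes were removed from it, then joined by 15 neighbours and clustered with leidenalg 0.10.2 at resolution 0.6. Sums of at least 20 spots were tested in edgeR 4.0.16 (TMM scaling, filterByExpr, library block, 22 residual degrees of freedom), over the remaining genes plus members and list genes, with p-values adjusted over all genes tested. The SE of an edgeR log2 fold change was worked back from its test, as the absolute log2 fold change over the square root of F. Of the 6 pathway lists, Cyr61 and Ctgf were not matched by symbol. Counts totalled 16915926, 27279702 and 29953072 UMIs per library. Genes were placed with GENCODE M21. On simulated counts for region 1 with 5846 genes, the test gave an adjusted p under 0.05, with no minimum fold, for 91.8% of genes raised 2-fold, 85.1% of genes lowered to 0.5 of their level and 0.106% of unchanged genes. The simulated sums were independent, shared 1 baseline over all regions and had no library effect. These shares therefore do not give the error rate in the real sums. Spot positions and doublets were not analysed here. The part that counting error plays grows as UMIs per gene fall.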

Additional observations from a re-analysis of the deposited data

How the results depend on the processing

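The 8 tested members differed among regions under every alternative that gave a value. Of the 24 called pairs, 24 were kept with relative log expression scaling, no filter on low counts, or spot minimums of 0 or 5000 UMIs, and 23 with DESeq2 (Ier3 in region 3 lost); relative log scaling put the all-gene median of region 12 0.13 higher in log2. With no minimum fold change 32 pairs were called higher and 30 lower. Leaving out 1 library gave 13 to 16 higher and 12 to 13 lower. The samples carry replicate numbers only as libraries: with no replicate block 13 pairs were higher and 11 lower, and Junb in region 12 was lost (−1.199, adjusted p = 0.0520). Against the pooled other spots 12 were higher and 18 lower, Egr1 in regions 5 and 9 was lost, and 18.9% to 55.3% of all calls in a region were higher, against 39.1% to 83.2% when compared with the mean of regions (43.3% against 61.0% in region 5). Under other clusterings regions were matched to the nearest cluster, and several could share 1: at resolution 0.3 regions 3, 4 and 12 did (Jaccard index 0.17 for region 12), as did 1 with 7 and 6 with 8, and with the other genes 7 with 10 and 6 with 8. Counts of kept pairs there reuse such fits. Clustering on the other genes kept 19 pairs, resolution 0.3 kept 17 and resolution 1.0 kept 21; at resolution 0.3, in these merged clusters, Fos in region 7 fell to 0.70, Dusp1 in region 8 to −0.88 and Atf3 in regions 4 and 12 to 0.77. No direction of a called pair changed. Without thinning, 38 of 45 shares and spot correlations moved by more than the spread between libraries. When spots were thinned to 1000 UMIs in place of 3000, 18 of the 45 did. The 10-spot Ier3 alternative was chosen after seeing the data. Low members are limited by depth: Fosb had 74 UMIs and Fos 9 in region 12.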
